A study of Mus musculus with 55 samples.

Results

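The genes described here are 37 mouse genes, some of which carry pyruvate into mitochondria or oxidise it in the tricarboxylic acid (TCA) cycle. Others move amino groups between glutamate and pyruvate or oxaloacetate, or move the products across the inner mitochondrial membrane. All 37 were listed by name, with earlier results of these data known, and no measured value is part of the rule. They comprise 5 subunits of the pyruvate dehydrogenase complex, 5 of its kinases and phosphatases, 2 pyruvate carrier genes, 11 TCA cycle genes of the matrix, 4 NADP-linked or cytosolic counterparts, 4 aminotransferases and 6 mitochondrial carriers. All 37 are in the table of 24475 genes, and 36 were among the 13311 genes abundant enough to be tested. The genes were measured by RNA sequencing of liver from 55 male mice, labelled as 5 months old, of 2 stocks. The wild-type stock (WT) is the hybrid B6EiC3SnF1/J, and the OTC stock, B6EiC3Sn a/A-Otcspf-ash/J, carries the spf-ash allele of Otc, the X-linked gene of the urea cycle enzyme ornithine transcarbamylase. Every mouse, controls included, received an adeno-associated virus (AAV) by vein at 4 months of age and ate a diet with 40% protein from week 2 to liver collection at week 5. The virus carried a scrambled hairpin (control; 10 WT and 8 OTC libraries), a hairpin against Gls2, liver glutaminase (sh-Gls2; 10 WT and 10 OTC), or a hairpin against Glud1, glutamate dehydrogenase (sh-Glud1; 9 WT and 8 OTC). The stocks differ in background as well as in Otc, so the allele and the background cannot be told apart. No group went without virus or without the diet, and the promoter and serotype of the virus are not given in the sources used here.

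As background, glutamate links these genes to ammonia. Glutaminase and glutamate dehydrogenase both release ammonia, while the aminotransferases move the amino group of glutamate onto pyruvate or oxaloacetate and return 2-oxoglutarate to the cycle. Aspartate made in this way gives the urea cycle its other nitrogen, and fumarate that the urea cycle releases is returned to malate by fumarase. In liver, pyruvate dehydrogenase is switched off by its kinases and on by its phosphatases when the organ moves between making glucose and burning or storing it.

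Total counts ranged from 14489866 to 22781052 per library, with a median of 18683991. Levels below are CPM, the count of a gene per 1000000 counts of its library after TMM scaling (factors 0.924 to 1.12). TPM, the same kind of share after dividing by transcript length, is used where genes are compared with each other. The 3 targeted genes followed the labels in every group compared. Otc was at 472 to 596 CPM in WT control and 42.996 to 79.05 CPM in OTC control libraries. Gls2 was lower under sh-Gls2 by 53.7% in WT and 54.9% in OTC, and Glud1 was lower under sh-Glud1 by 62.7% in WT and 58.4% in OTC, with no overlap between the groups. Hepatocyte markers dominated each group, at a summed 74065 TPM or more, and no marker of the 7 cell types examined was at 0 in any group. Bulk RNA cannot tell fewer cells of a type from less RNA per cell.

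Levels per length in WT control liver spanned the list from Mdh1 to Pdk3. Malate dehydrogenase 1 (Mdh1), the cytosolic partner of the malate-aspartate shuttle, was highest at 553 ± 38.6 TPM (SD, n = 10). Cytosolic isocitrate dehydrogenase Idh1 followed at 328 ± 42.9 TPM and mitochondrial aspartate aminotransferase Got2 at 323 ± 22.4 TPM, and these neighbours did not differ beyond their spread. Both pyruvate carrier genes were abundant, Mpc2 at 308 ± 50.4 TPM and Mpc1 at 267 ± 54.9 TPM, again within each other's spread. Of the alanine and aspartate aminotransferases, Gpt was at 206 ± 33.2 TPM, Got1 at 205 ± 46.1 TPM and Gpt2 at 149 ± 26.8 TPM. The regulators of pyruvate dehydrogenase were far lower, with Pdk2 at 58.9 ± 10.6 TPM, Pdk1 at 27.9 ± 7.40 TPM, Pdp2 at 13.2 ± 2.55 TPM, Pdpr at 6.89 ± 0.737 TPM and Pdk3 at 0.245 ± 0.101 TPM. Slc25a12, an aspartate-glutamate carrier, was at 7.17 ± 0.935 TPM, beside 117 ± 9.97 TPM for Slc25a13, the aspartate-glutamate carrier known as citrin. Slc25a18, a mitochondrial glutamate carrier, was near absent: 16 of 55 libraries had a count, the highest 5, and 27 counts in all, so it was not tested. The other glutamate carrier, Slc25a22, was at 80.4 ± 13.9 TPM.

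**Figure D1:**
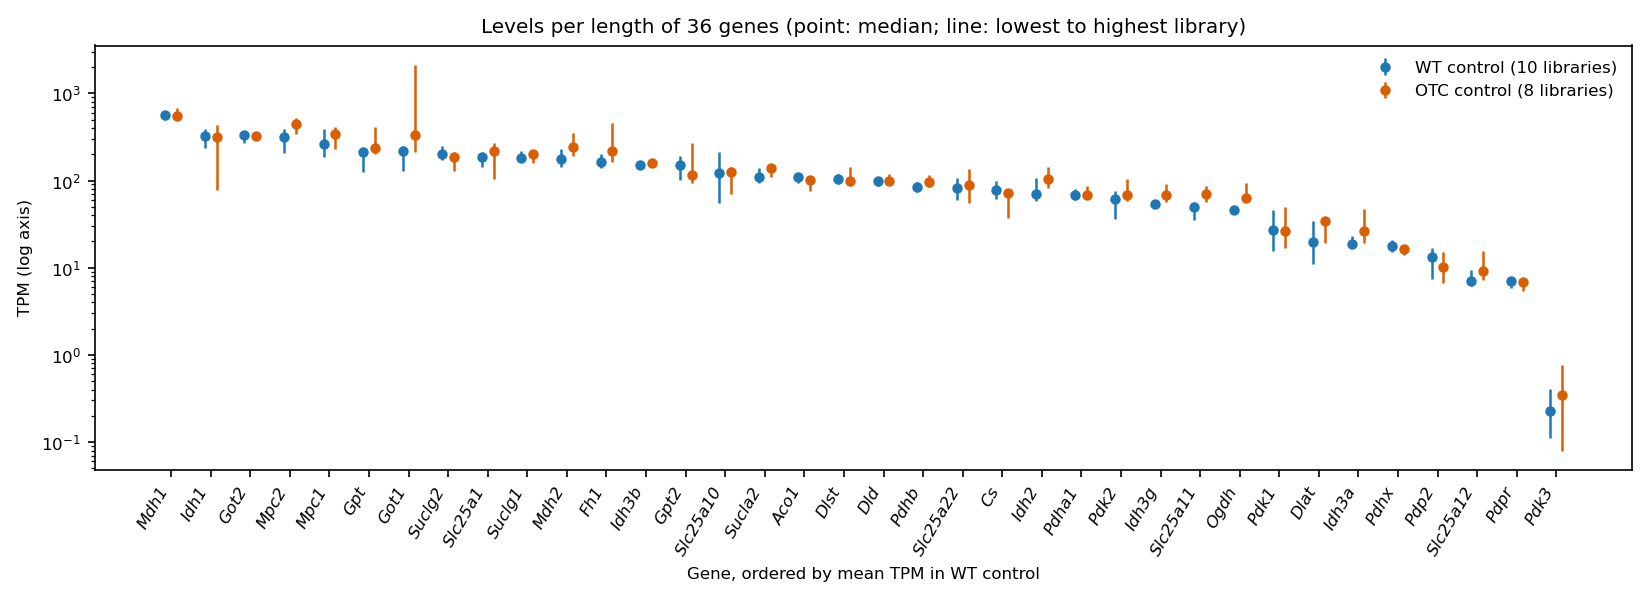
TPM (log axis) of the 36 tested genes in WT control (10 libraries) and OTC control (8 libraries), ordered by the mean in WT control, with the median as a point and the lowest to highest library as a line. Mdh1 is at the left (WT control mean 553 TPM) and Pdk3 at the right (WT control mean 0.245 TPM). The longest line is that of Got1 in OTC control, which ends at 2125 TPM.

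The 250 bases before the RefSeq start site on GRCm38.p6 were read for 4 of the listed genes, Got1, Fh1, Suclg2 and Idh2. They are given 5′ to 3′ on the minus strand that each gene is read from. Capitals mark matches, on either strand, to 5 short motifs that were chosen after the values were seen.
Got1: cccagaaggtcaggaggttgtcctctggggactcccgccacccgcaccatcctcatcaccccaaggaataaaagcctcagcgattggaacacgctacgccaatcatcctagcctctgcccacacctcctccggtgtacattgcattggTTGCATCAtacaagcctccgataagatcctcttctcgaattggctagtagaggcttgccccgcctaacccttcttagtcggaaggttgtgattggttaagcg
Fh1: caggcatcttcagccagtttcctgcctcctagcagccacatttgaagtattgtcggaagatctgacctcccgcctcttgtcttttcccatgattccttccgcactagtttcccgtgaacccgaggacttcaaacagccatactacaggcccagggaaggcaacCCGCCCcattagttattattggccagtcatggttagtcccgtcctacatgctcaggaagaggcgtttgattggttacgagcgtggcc
Suclg2: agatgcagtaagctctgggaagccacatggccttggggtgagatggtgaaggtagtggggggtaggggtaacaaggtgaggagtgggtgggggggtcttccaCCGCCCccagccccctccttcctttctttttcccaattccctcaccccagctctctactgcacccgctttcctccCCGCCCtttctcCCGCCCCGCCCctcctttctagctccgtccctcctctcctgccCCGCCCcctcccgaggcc
Idh2: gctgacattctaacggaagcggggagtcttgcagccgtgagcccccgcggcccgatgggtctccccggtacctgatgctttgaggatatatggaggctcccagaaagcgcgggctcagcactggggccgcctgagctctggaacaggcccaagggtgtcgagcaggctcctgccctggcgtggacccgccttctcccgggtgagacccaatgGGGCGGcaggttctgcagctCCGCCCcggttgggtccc
The windows are chr19:43524606-43524855, chr1:175625636-175625885, chr6:95718847-95719096 and chr7:80115351-80115600. The Idh2 window overlaps the 5′ end of the gene as placed in GENCODE M21, which reaches 80115392. The capitals in Got1 are the reverse complement of TGATGNAA, the core of the amino acid response element. The 35 listed genes with a promoter entry have 46 promoters, of which 1 held it, and 3.45% of 32851 promoters hold it. The capitals in Fh1, Suclg2 and Idh2 are GC boxes (GGGCGG), held by 29 of the 46 promoters (24 of the 35 genes) and by 32.7% of all promoters. The other motifs searched were absent from these 4 windows: AGAACA, a glucocorticoid receptor's short site (4 of the 46 promoters, 16.1% of all promoters), TGACGTCA, the cyclic AMP response element (5 of 46, 1.55%), and the shorter TGACG, which lies within it (13 of 46, 17.8%). These matches describe letters and not bound sites.

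Before the comparisons, 4 OTC libraries have to be set apart, because their levels enter many of the results. Got1, cytosolic aspartate aminotransferase, was at 2563 and 1618 CPM in OTC control mice 03 and 67, against 234 to 480 CPM in the other 6 OTC controls. It was at 957 and 1614 CPM in OTC sh-Glud1 mice 58 and 65, against 173 to 543 CPM in the other 6 of that group. No OTC sh-Gls2 library exceeded 389 CPM. Mice 03 and 67 were the 2 highest of their group for 18 of the 36 tested genes and the 2 lowest for 4. Mice 58 and 65 were the 2 highest of theirs for 14 genes and the 2 lowest for 8. The same 12 genes had the pair at the top in both groups: Pdha1, Dld, Mpc2, Idh3a, Idh3g, Ogdh, Fh1, Mdh2, Got1, Gpt, Gpt2 and Slc25a12. Dlat, Cs, Idh1 and Slc25a1 had it at the bottom in both.

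Outside the list, Tat, tyrosine aminotransferase, was at 7041 and 5021 CPM in mice 03 and 67 against 997 to 2147 CPM in the other OTC controls, and at 7085 and 3653 CPM in mice 58 and 65 against 1256 to 2641 CPM. Pck1, a gluconeogenic enzyme, was at 6377 and 6198 CPM in mice 03 and 67 against 1069 to 2970 CPM, and at 5986 and 5027 CPM in mice 58 and 65 against 1356 to 3502 CPM. These 4 libraries and both of these genes were picked after the values were seen. They are in all fits below. Counts and calls of the listed genes that changed without mice 03 and 67, or without mice 58 and 65, are given beside the results.

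**Figure D2:**
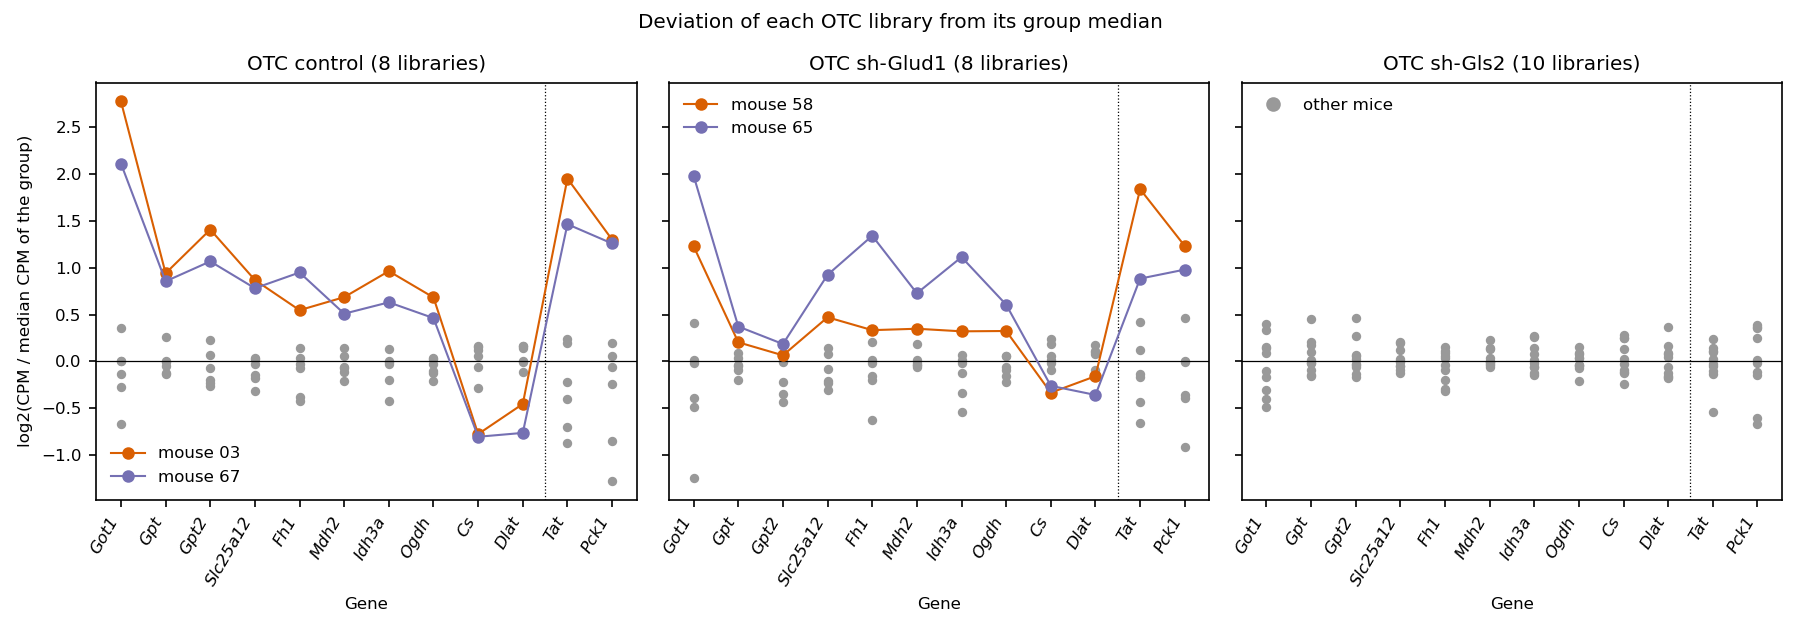
Log2 of the CPM of each OTC library over the median of its group, for 10 listed genes and, right of the dotted line, Tat and Pck1. Mice 03 and 67 (OTC control) and 58 and 65 (OTC sh-Glud1) are coloured and sit above their groups for Got1 and below for Cs and Dlat, while the 10 OTC sh-Gls2 libraries have none so far from their median in Got1.

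The stock comparison asks which genes differ between OTC and WT liver under the same vector. Under the control vector 12 of 36 genes were higher in OTC (33.3%) and 5 lower (13.9%). The higher genes were Got1, Gpt, the E2 subunit Dlat, the carriers Mpc2, Slc25a11 and Slc25a12, and the cycle enzymes Ogdh, Idh3a, Idh3g, Idh2, Fh1 and Mdh2, and the lower ones were Aco1, Suclg2, Pdp2, Pdhx and Cs. Over all genes tested 19.9% were higher and 16.4% lower. The median log2 fold change of the listed genes was 0.01, beside 0.02 over all genes, so genes on the list moved in both directions. A gene counts as called where its p from edgeR's quasi-likelihood test, adjusted by Benjamini and Hochberg's method for all 13311 genes, was under 0.05. Without OTC control mice 03 and 67, 12 genes were called, 4 higher and 8 lower, of which 8 were among the 17. Ogdh, Mpc2, Slc25a11, Dlat, Aco1, Suclg2, Pdp2 and Pdhx were called either way, and Got1, Gpt, Fh1, Cs, Idh2, Idh3a, Idh3g, Mdh2 and Slc25a12 were not. Dld, Dlst, Gpt2 and Got2 were called lower only without these mice. In TPM, on the log2(TPM + 1) scale, the control comparison gave 17 higher and 3 lower, with the median of all genes at 0.10. Here and below, the share of all genes called was counted only in the fit of all 55 libraries. Counts from refits and from TPM therefore have no such share beside them.

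Under sh-Gls2 7 listed genes were called between the stocks, and 14 when these 2 groups were fitted alone, against 17 and 14 under the control vector. In the fit of all groups 5 genes were higher (Dlat, Ogdh, Idh2, Mpc2 and Slc25a12) and 2 lower (Pdhx and Aco1), or 13.9% and 5.56%, against 14.5% and 14.9% of all genes. In TPM the split was 16 higher and 1 lower, with the median of all genes moved from 0.01 to 0.12. Under sh-Glud1 10 genes were higher (27.8%) and 8 lower (22.2%), against 19.9% and 15.1% of all genes. That split was 14 and 4 in TPM, with the median of all genes moved from 0.02 to 0.15. Without OTC sh-Glud1 mice 58 and 65 it was 4 higher and 11 lower, with 11 of the 18 genes retained. Fh1, Cs, Slc25a11, Got1, Slc25a12, Mdh2 and Idh3g were then not called, and Mdh1, Dld, Dlst and Idh3b were called lower. The 3 stock comparisons use separate libraries. Dlat, Mpc2, Ogdh and Slc25a12 were higher in OTC in all 3 of them, Pdhx and Aco1 were lower in all 3, none was called in opposite directions, and 16 were called in none. Of these 6, Slc25a12 was not called without mice 03 and 67 or without mice 58 and 65, and the others kept their calls in both cases. Dividing cell markers were lower in OTC for 3 of 5 under the control vector (summed 1.06 to 2.33 TPM in OTC, 0.82 to 3.11 TPM in WT), and for 3 of 5 under sh-Glud1 (1.21 to 2.47 TPM in OTC, 1.73 to 4.40 TPM in WT). Of 6 hepatocyte markers 2 were higher and 1 lower under the control vector, 3 lower under sh-Gls2, and 2 higher and 3 lower under sh-Glud1. Of 6 macrophage markers 0, 2 and 1 were higher in OTC under the control, sh-Gls2 and sh-Glud1 vectors. Of 6 stellate markers 1 was higher under each vector, and 1, 1 and 2 were lower. Of the lymphocyte, endothelial and bile duct markers at most 1 of a list was called under any vector. The part of other cell types in these differences was not tested.

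Knockdown of Gls2 was followed by 12 calls in each stock, and the difference between the stocks is tested further on. In WT liver 5 of 36 genes rose (13.9%) and 7 fell (19.4%), against 17.6% and 17.2% of all genes. Idh2, Pdhb, Pdhx, Mdh2 and Slc25a12 rose, and Pdpr, Pdk1, Slc25a10, Slc25a1, Fh1, Slc25a11 and Pdp2 fell. In OTC liver 3 rose (8.33%) and 9 fell (25%), against 20.2% and 22.6% of all genes. Suclg2, Idh2 and Aco1 rose, and Slc25a11, Fh1, Got1, Idh3g, Idh3b, Idh3a, Dlat, Slc25a22 and Mpc2 fell. With all libraries in the fit, Idh2 rose and Fh1 and Slc25a11 fell in both stocks. A further 9 genes passed in WT and 9 in OTC. The medians were -0.02 in WT and -0.05 in OTC, beside -0.01 and -0.02 over all genes. The splits in TPM were 5 and 4 in WT and 7 and 6 in OTC. Without mice 03 and 67 the OTC count was 7 higher and 5 lower, with 5 of the 12 genes retained: Fh1, Slc25a11, Suclg2, Idh2 and Dlat. Dld, Slc25a12, Pdhx, Mdh2 and Gpt2 were then also called higher, and Slc25a10 and Slc25a1 lower. Of these added genes Slc25a12, Pdhx, Mdh2, Slc25a10 and Slc25a1 were called in the same direction in WT.

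Markers of other cell types moved with sh-Gls2. Of 6 macrophage markers 5 rose in each stock (summed TPM 63.6 to 115 in WT control, 96.4 to 156 under sh-Gls2, 49.8 to 155 in OTC control and 127 to 210.0 under sh-Gls2). Dividing cell markers rose for 5 of 5 in WT (0.82 to 3.11 TPM, then 3.48 to 20.3) and 4 of 5 in OTC (1.06 to 2.33 TPM, then 2.27 to 15.4). Stellate markers rose for 3 of 6 in WT (129 to 167 TPM, then 131 to 246) and 4 of 6 in OTC (158 to 217 TPM, then 194 to 315), and endothelial markers for none of 5 in WT and 4 of 5 in OTC. Hepatocyte markers fell for 1 of 6 in WT and 4 of 6 in OTC, where they summed to 82939 to 125663 TPM and then 81287 to 104349. Their part in the changes of the listed genes was not tested.

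**Figure D3:**
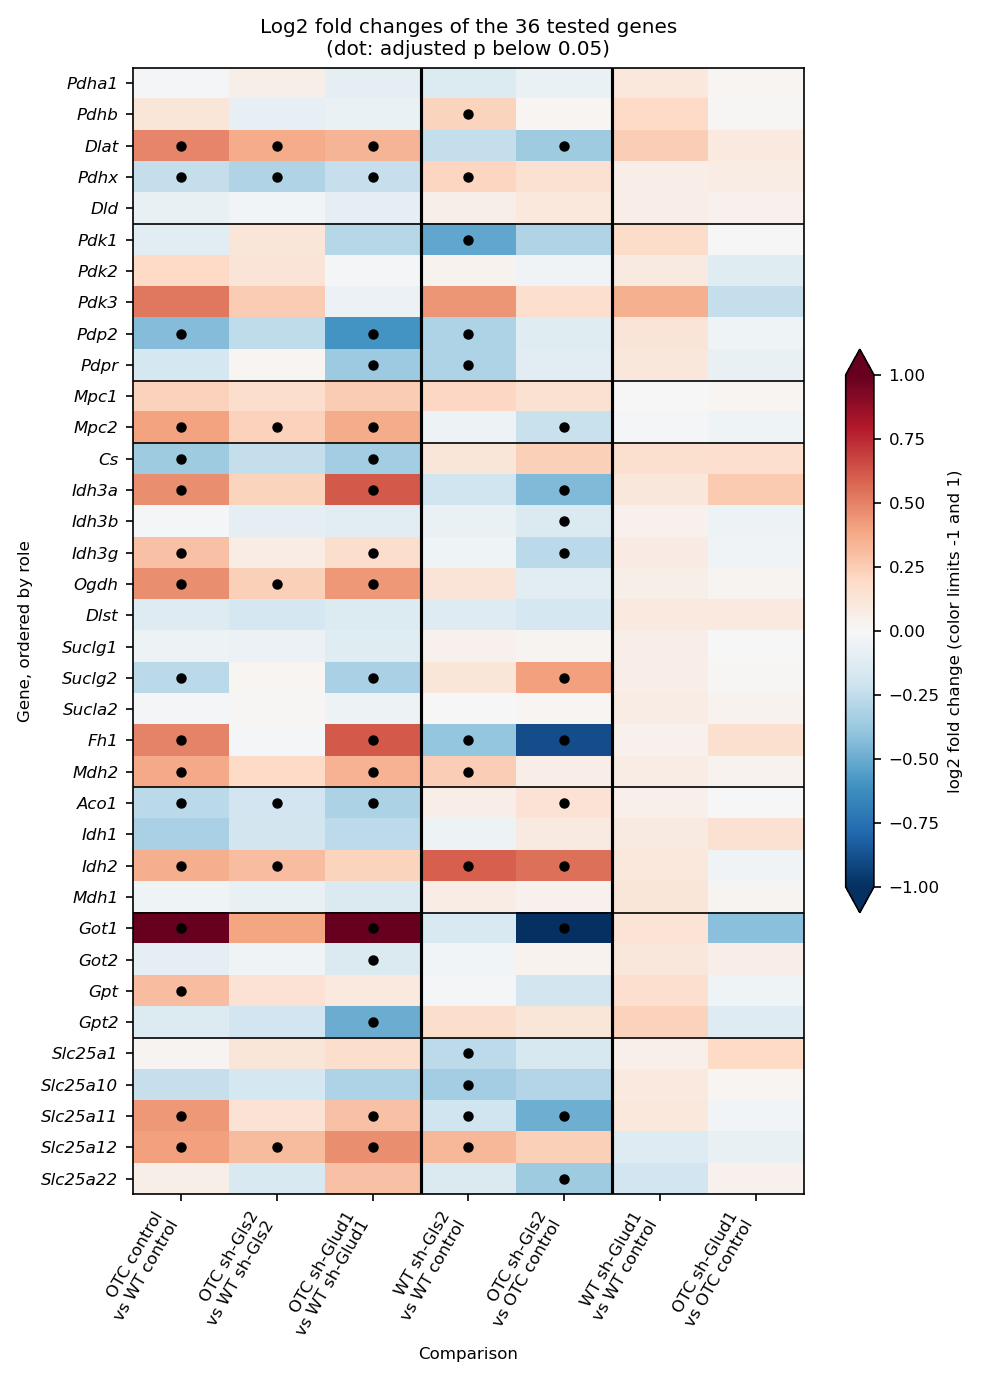
Log2 fold change (colour, limits -1 and 1) of the 36 tested genes, ordered by role, in the 3 stock comparisons, the 2 sh-Gls2 comparisons and the 2 sh-Glud1 comparisons, with a dot where the adjusted p was below 0.05. The stock and sh-Gls2 columns carry 17, 7, 18, 12 and 12 dots and the sh-Glud1 columns none, and Got1 exceeds the colour limits in 3 columns.

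In the pyruvate dehydrogenase complex, the E2 subunit Dlat, which carries the lipoyl arm, and the E3-binding protein Pdhx, which tethers E3, went opposite ways between the stocks. The level of Dlat was 26.8 to 86.5 CPM (median 51.2) in WT control and 46.1 to 87.9 CPM (median 78.2) in OTC control. The ranges overlapped, and the log2 fold change was 0.49 ± 0.13 (SE; adjusted p = 0.00242), or 0.62 without mice 03 and 67, which were the 2 lowest OTC controls. Under sh-Gls2 Dlat was at 36.9 to 59.5 CPM (median 43.02) in WT and 50.6 to 73.6 CPM (median 57.1) in OTC. It fell in OTC by 0.36 ± 0.13 (adjusted p = 0.0215), and by 0.32 with adjusted p of 0.0504 to 0.0522 without OTC control mouse 43, mouse 72 or the control whose number matches no title. On log2(TPM + 1) and log2(TPM + 0.1) this fall was not called. The WT value was -0.24 (adjusted p = 0.129). Under sh-Glud1 Dlat was higher in OTC by 0.34 ± 0.13 (adjusted p = 0.0410), near the threshold: 10 of 17 omissions of a single library ended the call, at 0.29 to 0.34.

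Pdhx was at 25.8 to 34.5 CPM (median 27.8) in WT control and lower, at 20.3 to 26.4 CPM (median 24.8), in OTC control (log2 fold change -0.24 ± 0.07, adjusted p = 0.00508). Only the 2 lowest WT libraries, at 25.8 and 26.3 CPM, fell inside the OTC range. Under sh-Gls2 it was at 29.2 to 38.8 CPM (median 33.2) in WT and 23.7 to 33.7 CPM (median 26.8) in OTC, a rise of 0.22 ± 0.06 in WT (adjusted p = 0.00594) and a value of 0.15 in OTC (adjusted p = 0.0593). The stock difference of Pdhx was -0.30 ± 0.06 under sh-Gls2 (adjusted p = 0.000353), and in the controls it was -0.12 (adjusted p = 0.107) on log2(TPM + 1). Pdhb, the E1 beta subunit, was at 65.4 to 90.7 CPM (median 79.6) in WT control and 78.4 to 108 CPM (median 92.0) under sh-Gls2. It rose by 0.22 ± 0.06 (adjusted p = 0.00326) with overlapping ranges. On counts of all libraries, Pdha1 (E1 alpha) and Dld (E3) were called in no stock comparison and in neither sh-Gls2 comparison with control. On log2(TPM + 1) both were called higher in OTC than in WT under sh-Gls2, and Dld rose under sh-Gls2 in OTC. Pdha1 was called lower under sh-Gls2 in WT without WT control mouse 07, WT sh-Gls2 mouse 45 and OTC sh-Glud1 mouse 65. Without mice 03 and 67, however, Dld was called lower in OTC control and higher under sh-Gls2 in OTC. Without mice 58 and 65 Dld was called lower in OTC under sh-Glud1.

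Of the 5 regulators of the complex, Pdk1, Pdpr and Pdp2 fell under sh-Gls2 in WT. Pdk1, a kinase that switches the complex off, was at 48.8 to 146 CPM (median 88.0) in WT control and 52.4 to 105 CPM (median 59.6) under sh-Gls2. It fell by 0.52 ± 0.16 on the log2 scale (adjusted p = 0.00669), and 1 high sh-Gls2 library, mouse 45 at 105 CPM, lay above 9 of the 10 controls. In OTC Pdk1 was at 53.5 to 148 CPM (median 80.3) and 45.01 to 96.3 CPM (median 70.7), a log2 fold change of -0.30 (adjusted p = 0.138). Pdk2 and Pdk3, other kinases of the complex, were called in no comparison in the fit of all 55 libraries. On log2(TPM + 1) Pdk2 was called higher in OTC under the control and sh-Gls2 vectors. Pdpr, the regulatory subunit of the phosphatase, was at 10.3 to 14.2 CPM (median 13.2) in WT control and 8.85 to 12.1 CPM (median 10.1) under sh-Gls2 and fell by 0.31 ± 0.07 (adjusted p = 0.000918).

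Pdp2, a phosphatase that switches the complex on, was lower in OTC. It was at 15.6 to 39.5 CPM (median 29.9) in WT control and 15.02 to 30.6 CPM (median 20.7) in OTC control (log2 fold change -0.43 ± 0.12, adjusted p = 0.00419). Under sh-Glud1 it was at 28.3 to 37.1 CPM (median 31.5) in WT and 13.1 to 29.5 CPM (median 21.5) in OTC (-0.60 ± 0.13, adjusted p = 0.000191). In both comparisons most OTC libraries lay below the WT median. In WT it fell under sh-Gls2 to 21.2 to 27.8 CPM (median 23.8; -0.30 ± 0.11, adjusted p = 0.0330), a call lost without WT control mouse 77 (-0.25, adjusted p = 0.0824), 19 (-0.28, 0.0558) or 28 (-0.29, 0.0542), or WT sh-Gls2 mouse 08 (-0.29, 0.0526). Pdpr under sh-Glud1 was at 11.4 to 15.03 CPM (median 13.8) in WT and 8.94 to 12.7 CPM (median 10.2) in OTC (-0.36 ± 0.08, adjusted p = 0.000379).

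Mpc2 and Mpc1 form the carrier that brings pyruvate into mitochondria. Mpc2 (chromosome 1, 165460637 to 165481214, plus strand, GRCm38) was at 76.6 to 145 CPM (median 122) in WT control and 121 to 188 CPM (median 159.7) in OTC control. The log2 fold change between the stocks was 0.40 ± 0.09 (adjusted p = 0.000431), or 0.31 with mice 03 and 67 left out. Under sh-Gls2 it was at 102 to 130.5 CPM (median 114) in WT and 111 to 164 CPM (median 134) in OTC, a stock difference of 0.23 ± 0.09 (adjusted p = 0.0350) that was lost in 7 of 20 omissions of a single library (0.20 to 0.22, adjusted p 0.0534 to 0.0828; WT mice 36, 18 and 08 and OTC mice 50, 49, 24 and 04). Its fall under sh-Gls2 in OTC, by 0.22, was near the threshold (adjusted p = 0.0443) and was lost by 11 of 18 such omissions and under each of 9 alternative settings, DESeq2 and both other filters included. Mpc1 was called in no comparison in the fit of all 55 libraries. Its values were 0.23 between the stocks and 0.20 and 0.15 under sh-Gls2 in WT and OTC. On log2(TPM + 1) Mpc1 was called higher in OTC under each vector. Without WT control mouse 13 it was called higher in OTC control than in WT control, and higher under sh-Gls2 in WT.

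Ogdh, Fh1 and Suclg2 are given first among the cycle enzymes of the matrix. Overlap of ranges is described gene by gene, and how many of all genes lacked overlap was not counted. Ogdh (chromosome 11, 6291633 to 6356642, plus strand), the E1 subunit of 2-oxoglutarate dehydrogenase, was at 162 to 196 CPM (median 181) in WT control and 199.6 to 369.6 CPM (median 230.1) in OTC control. Every OTC control lay above every WT control (log2 fold change 0.47 ± 0.09, adjusted p = 2.80e-05), and the value without mice 03 and 67 was 0.27. Under sh-Glud1 it was at 172 to 204 CPM (median 189.5) in WT and 207 to 367 CPM (median 241) in OTC, again without overlap (0.44 ± 0.09, adjusted p = 0.000119, and 0.27 without mice 58 and 65). Under sh-Gls2 it was at 170.3 to 215 CPM (median 198) in WT and 201 to 259.7 CPM (median 233) in OTC, with overlap (0.24 ± 0.08, adjusted p = 0.0229). Ogdh was not called for either hairpin within a stock in the fit of all groups. With the compared groups alone it was called higher under sh-Gls2 in WT. Dlst, its E2 subunit, was called in none of the stock comparisons with all 55 libraries in the fit. It was called lower in OTC control without mice 03 and 67, and in OTC under sh-Glud1 without mice 58 and 65.

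Fh1 (chromosome 1, 175600374 to 175625635, minus strand), fumarase, was at 143 to 199.9 CPM (median 163) in WT control and 107 to 151 CPM (median 127) under sh-Gls2. The ranges overlapped at their edges and Fh1 fell by 0.39 ± 0.14 (adjusted p = 0.0284). In OTC it was at 158 to 409 CPM (median 212) and, under sh-Gls2, 106 to 147 CPM (median 132). No sh-Gls2 library reached the lowest OTC control, and Fh1 fell by 0.89 ± 0.15 (adjusted p = 3.18e-06), or by 0.62 (adjusted p = 0.000413) without mice 03 and 67. Between the stocks it was higher in OTC control by 0.49 ± 0.15 (adjusted p = 0.00716), a call lost without mouse 67 (0.33, adjusted p = 0.0608). Under sh-Glud1 Fh1 was at 153 to 213 CPM (median 172) in WT and 147 to 576 CPM (median 227) in OTC (0.62 ± 0.15, adjusted p = 0.00135). Without OTC sh-Glud1 mouse 65 that difference was 0.34 (adjusted p = 0.0246), and without mice 58 and 65 it was 0.27 (adjusted p = 0.0967). Under sh-Gls2 the stocks did not separate (-0.01, adjusted p = 0.974).

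Suclg2 (chromosome 6, 95473009 to 95718800, minus strand), the beta subunit of the GTP-forming succinyl-CoA ligase, went the other way. It was at 234 to 351 CPM (median 295) in WT control and 189 to 279.6 CPM (median 248) in OTC control, lower by a log2 value of -0.27 ± 0.07 (adjusted p = 0.00106). On log2(TPM + 1) the value was -0.16 (adjusted p = 0.0948). Under sh-Gls2 in OTC it rose to 281 to 357 CPM (median 323), above every OTC control (0.41 ± 0.07, adjusted p = 1.51e-06, and 0.36 without mice 03 and 67). In WT under sh-Gls2 it was at 282 to 367 CPM (median 319.8; 0.12, adjusted p = 0.116). Under sh-Glud1 it was at 261 to 359 CPM (median 310.3) in WT and 223 to 284 CPM (median 245) in OTC (-0.32 ± 0.07, adjusted p = 0.000188). The alpha subunit Suclg1 and the ATP-forming beta subunit Sucla2 were called in no comparison in the fit of all 55 libraries. On log2(TPM + 1) Sucla2 was called higher in OTC under the control and sh-Gls2 vectors. Suclg1 was called lower in OTC under sh-Glud1 without WT control mouse 07, WT sh-Gls2 mouse 45 and OTC sh-Glud1 mouse 65.

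The 3 subunits of NAD-dependent isocitrate dehydrogenase fell together under sh-Gls2 in OTC, and those calls did not hold without mice 03 and 67. Idh3a was at 26.7 to 69.8 CPM (median 35.8) in OTC control and 26.6 to 35.4 CPM (median 29.4) under sh-Gls2 (-0.44 ± 0.14, adjusted p = 0.00848, and -0.29 with adjusted p = 0.0745 without mouse 03). Idh3g was at 44.4 to 71.1 CPM (median 54.1) and 40.2 to 52.2 CPM (median 46.4; -0.27 ± 0.07, adjusted p = 0.00149). Idh3b was at 132 to 161 CPM (median 144) and 115 to 147 CPM (median 129; -0.15 ± 0.05, adjusted p = 0.00814). Without mice 03 and 67 the 3 values were -0.17, -0.13 and -0.11 (adjusted p = 0.322, 0.0843 and 0.0715). In WT, Idh3a, Idh3b and Idh3g were not called, at -0.20, -0.06 and -0.04, though Idh3a was called lower with the compared groups alone.

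Between the stocks Idh3a and Idh3g were higher in OTC control. Idh3a was at 26.3 to 37.6 CPM (median 29.0) in WT control, and its difference was 0.46 ± 0.14 (adjusted p = 0.00706), lost without mouse 03 (0.30, adjusted p = 0.0754). Idh3g was at 39.5 to 50.1 CPM (median 45.97) in WT control, with a difference of 0.29 ± 0.07 (adjusted p = 0.000702), or 0.15 (adjusted p = 0.0637) without mice 03 and 67. Under sh-Glud1 Idh3a was at 26.6 to 39.4 CPM (median 33.1) in WT and 30.6 to 96.2 CPM (median 44.4) in OTC (0.61 ± 0.14, adjusted p = 0.000677, 0.40 without OTC sh-Glud1 mouse 65 and 0.32 without mice 58 and 65). The median of Idh3a in OTC control lay below the highest WT control. For Idh3g under sh-Glud1 the difference was 0.18 ± 0.07 (adjusted p = 0.0465), lost by 13 of 17 single omissions and at 0.12 (adjusted p = 0.196) without mouse 65. Idh3g is X-linked, as are Otc and the listed genes Pdha1 and Pdk3.

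Mdh2, mitochondrial malate dehydrogenase, was at 123 to 169.6 CPM (median 143) in WT control and 152 to 185 CPM (median 167) under sh-Gls2, a rise of 0.24 ± 0.09 (adjusted p = 0.0226). In OTC control it was at 144 to 269 CPM (median 167), a log2 fold change of 0.38 ± 0.09 over WT (adjusted p = 0.000808), or 0.18 (adjusted p = 0.0819) without mice 03 and 67. All of these ranges overlapped. Cs, citrate synthase, was at 108 to 172 CPM (median 139) in WT control and 66.9 to 131 CPM (median 117) in OTC control. The difference was -0.35 ± 0.11 (adjusted p = 0.00769), and -0.20 (adjusted p = 0.119) without mice 03 and 67, which held the 2 lowest Cs values.

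Of the NADP-linked and cytosolic counterparts, Idh2 rose under sh-Gls2 in both stocks. Idh2 (chromosome 7, 80094846 to 80115392, minus strand), the NADP-dependent isocitrate dehydrogenase of the matrix, was at 60.8 to 112 CPM (median 77.3) in WT control and 98.9 to 146 CPM (median 126) under sh-Gls2. It rose by 0.60 ± 0.11 (adjusted p = 1.92e-05), with few libraries in the shared range. In OTC it was at 80.6 to 157 CPM (median 99.8) and 122 to 184 CPM (median 158), a rise of 0.55 ± 0.12 (adjusted p = 0.000137), or 0.66 without mice 03 and 67. The stock difference of Idh2 was 0.36 ± 0.12 (adjusted p = 0.0115) under the control vector, lost without mouse 03 (0.25, adjusted p = 0.0852). It was 0.31 ± 0.11 (adjusted p = 0.0259) under sh-Gls2, lost without WT mouse 36 or OTC mouse 74 (0.28 each, adjusted p = 0.0545 and 0.0518).

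Aco1 (chromosome 4, 40143081 to 40198338, plus strand), cytosolic aconitase and iron regulatory protein, was lower in OTC in each vector group. It was at 202 to 269.7 CPM (median 255) in WT control and 175 to 232 CPM (median 213) in OTC control (-0.27 ± 0.05, adjusted p = 3.34e-05). Under sh-Gls2 it was at 219 to 289 CPM (median 266) in WT and 211 to 245 CPM (median 233) in OTC (-0.19 ± 0.05, adjusted p = 0.00172). Under sh-Glud1 it was at 236 to 292 CPM (median 257) in WT and 194 to 231 CPM (median 211) in OTC (-0.32 ± 0.05, adjusted p = 3.78e-06). The ranges were separate in the sh-Glud1 groups and overlapped in the others. In TPM, again as log2(TPM + 1), the sh-Gls2 difference was -0.05 (adjusted p = 0.481). Within OTC, Aco1 rose under sh-Gls2 by 0.15 ± 0.05 (adjusted p = 0.0146), lost without mouse 03 (0.11, adjusted p = 0.0622). Idh1 and Mdh1 were called in no comparison in the fit of all 55 libraries. Idh1 reached 112 CPM at its lowest in OTC control, where mice 03 and 67 were the 2 lowest, against 314 CPM in WT control. Without WT control mouse 07, WT sh-Gls2 mouse 45 and OTC sh-Glud1 mouse 65, Idh1 was called lower in OTC control. Mdh1 was called lower in OTC under sh-Glud1 without these 3 mice, and also without mice 58 and 65.

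Of the aminotransferases, Got1 had the widest spread on the list. Got1 (chromosome 19, 43499752 to 43524605, minus strand) was at 162 to 314 CPM (median 266) in WT control, 234 to 2563 CPM (median 374) in OTC control and 211 to 389 CPM (median 295) under sh-Gls2 in OTC. OTC control was higher than WT control by a log2 value of 1.66 ± 0.33 (adjusted p = 8.75e-05), or 3.16-fold. The value was 1.08 (adjusted p = 0.00369) without mouse 03 and 0.49 (adjusted p = 0.151) without mice 03 and 67. Under sh-Gls2 Got1 fell in OTC by 1.42 ± 0.33 (adjusted p = 0.000430), by 0.85 (adjusted p = 0.0168) without mouse 03, and the value was -0.26 (adjusted p = 0.453) without both mice. In WT Got1 under sh-Gls2 was at 170.4 to 272 CPM (median 227; -0.15, adjusted p = 0.738). Under sh-Glud1 it was at 121 to 439 CPM (median 265) in WT and 173 to 1614 CPM (median 408) in OTC (1.10 ± 0.34, adjusted p = 0.00885), 0.68 (adjusted p = 0.0961) without OTC sh-Glud1 mouse 65 and 0.37 (adjusted p = 0.421) without mice 58 and 65.

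Gpt, the first alanine aminotransferase gene, was at 131 to 263 CPM (median 239) in WT control and 209.6 to 443 CPM (median 231) in OTC control. Its call (0.31 ± 0.11, adjusted p = 0.0263) was lost without WT control mouse 07 (0.24, adjusted p = 0.0712) or OTC control mouse 67 (0.20, adjusted p = 0.1503) or 03 (0.17, adjusted p = 0.213), and the value was 0.02 without mice 03 and 67. Gpt2, the mitochondrial alanine aminotransferase, was at 318 to 497 CPM (median 405) in WT and 223 to 341 CPM (median 299.98) in OTC under sh-Glud1 (-0.49 ± 0.16, adjusted p = 0.0143). On log2(TPM + 1) the value was -0.33 (adjusted p = 0.0668). Got2 was lower in OTC under sh-Glud1 by a log2 value of -0.15 ± 0.05 (adjusted p = 0.0161), a direction that turned on log2(TPM + 1). It was not called for either hairpin against control, and in WT it was lower under sh-Gls2 than under sh-Glud1 (-0.14, adjusted p = 0.0174).

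Of the carriers, Slc25a11 (chromosome 11, 70644196 to 70647479, minus strand), which exchanges 2-oxoglutarate for malate in the malate-aspartate shuttle, was at 39.9 to 64.0 CPM (median 57.5) in WT control and 59.8 to 97.1 CPM (median 73.4) in OTC control. The log2 fold change was 0.43 ± 0.08 (adjusted p = 2.75e-05), or 0.30 with mice 03 and 67 left out. Under sh-Gls2 it was at 45.8 to 58.5 CPM (median 48.3) in WT and 51.6 to 59.4 CPM (median 53.8) in OTC. The OTC sh-Gls2 libraries all lay below the OTC controls (-0.49 ± 0.08, adjusted p = 1.67e-06, and -0.37 without mice 03 and 67). In WT it fell by 0.20 ± 0.07 (adjusted p = 0.0323), a call lost without WT control mouse 13 (-0.18, adjusted p = 0.0556), 02 (-0.19, 0.0542) or 20 (-0.19, 0.0564). Exons of Rnf167 overlap Slc25a11 on the opposite strand, and whether counting used strand is not stated. Under sh-Glud1 Slc25a11 was at 53.2 to 64.1 CPM (median 61.6) in WT and 64.2 to 106 CPM (median 70.3) in OTC, without overlap (0.30 ± 0.08, adjusted p = 0.00349), and the value was 0.18 (adjusted p = 0.0721) without mice 58 and 65.

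Slc25a12 was at 11.4 to 16.5 CPM (median 13.1) in WT control and 14.1 to 20.8 CPM (median 16.5) under sh-Gls2, a rise of 0.33 ± 0.12 (adjusted p = 0.0305) that was lost without WT control mouse 41 (0.31, adjusted p = 0.0554) or 20 (0.32, 0.0506), or WT sh-Gls2 mouse 18 (0.30, 0.0618) or 01 (0.29, 0.0666). In OTC control it was at 12.5 to 28.4 CPM (median 15.5), higher than in WT by 0.41 ± 0.13 (adjusted p = 0.01005), and not called without mouse 03 (0.27, adjusted p = 0.0888) or 67 (0.30, adjusted p = 0.0603). Under sh-Gls2 the stock difference of Slc25a12 was 0.32 ± 0.12 (adjusted p = 0.0421), lost by 11 of 20 single omissions, and under sh-Glud1 it was 0.47 ± 0.13 (adjusted p = 0.00498), or 0.31 (adjusted p = 0.0463) without OTC sh-Glud1 mouse 65 and 0.21 (adjusted p = 0.203) without mice 58 and 65. Slc25a12 was higher in OTC in every one of these comparisons, with overlapping ranges.

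Slc25a1, the citrate carrier, was at 131 to 215 CPM (median 190.3) in WT control and 130.1 to 209 CPM (median 150.1) under sh-Gls2. It fell by 0.26 ± 0.09 (adjusted p = 0.0268), not called without WT control mouse 28 (-0.23, adjusted p = 0.0560) or on log2(TPM + 1) (-0.25, adjusted p = 0.0673). Slc25a10, the dicarboxylate carrier, was at 91.4 to 247 CPM (median 156) and 93.0 to 211 CPM (median 118). It fell by 0.35 ± 0.12 (adjusted p = 0.0211), not called without WT control mouse 13 (-0.26, adjusted p = 0.0758). Slc25a22 fell in OTC under sh-Gls2 by 0.35 ± 0.14 (adjusted p = 0.0391), and 8 of 18 single omissions removed the call, with the value at -0.25 (adjusted p = 0.157) without mouse 67.

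**Figure D4:**
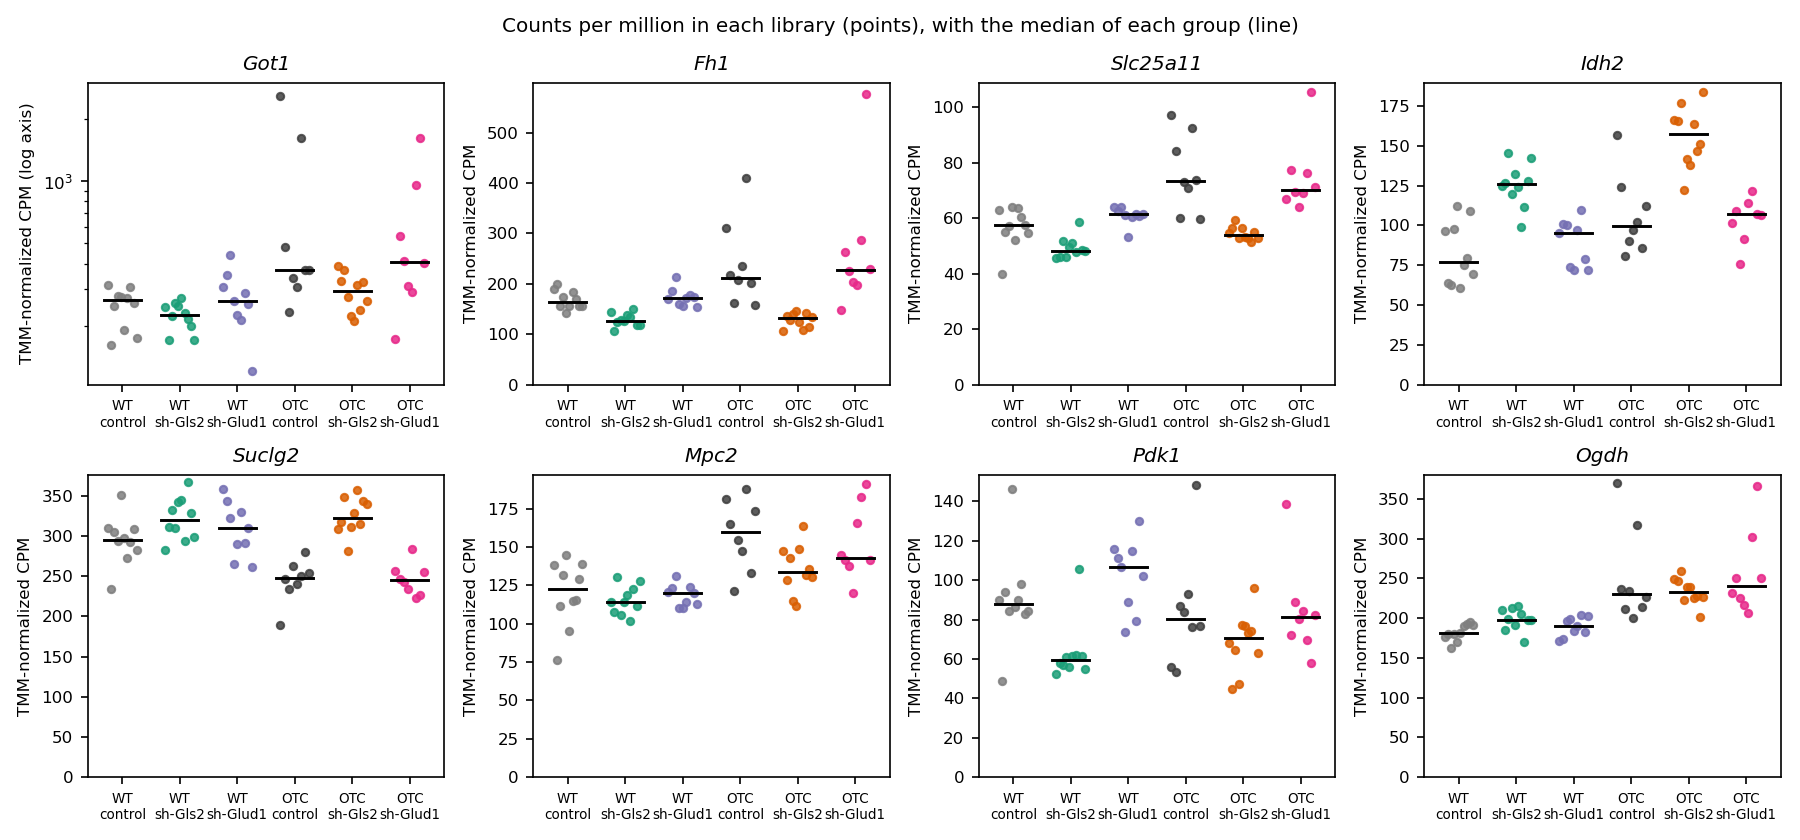
TMM-normalized CPM of 8 listed genes in each library (points) of the 6 groups, with the group median as a line and a log axis for Got1. The OTC sh-Gls2 points of Fh1 and Slc25a11 lie below all OTC control points and those of Suclg2 above them, and Got1 reaches 2563 CPM in OTC control.

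Whether sh-Gls2 acted differently in the stocks was tested as a difference of the 2 effects. None of the 36 genes passed, by edgeR or by DESeq2, against 0.338% of all genes (45 genes). At an unadjusted p below 0.05 there were 6 listed genes and 1494 of all genes. Suclg2 was nearest, with an effect larger in OTC by 0.29 ± 0.09 on the log2 scale (95% interval 0.11 to 0.47, adjusted p = 0.158). Got1 followed at -1.26 ± 0.45 (interval -2.17 to -0.36, adjusted p = 0.244), then Slc25a11 at -0.29 (adjusted p = 0.279), Fh1 at -0.50 (adjusted p = 0.327), Idh3g at -0.22 and Pdhb at -0.21. Without WT control mouse 07, WT sh-Gls2 mouse 45 and OTC sh-Glud1 mouse 65 Suclg2 passed (0.35 ± 0.09, adjusted p = 0.0455). The genes called in only 1 stock above are therefore not shown to respond differently.

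Under knockdown of Glud1 none of the 36 genes passed the test in either stock. Over all genes, 3 were called in WT (0.0225%) and 2 in OTC (0.015%), and DESeq2 also called no listed gene. At an unadjusted p below 0.05, 2 listed genes in WT (Pdhb at 0.20 and Got2 at 0.11, of 697 genes) and none in OTC (of 639 genes) were found. In WT 32 of the 36 values were above 0, with a median of 0.09 beside -0.01 over all genes, and without WT control mouse 07, WT sh-Gls2 mouse 45 and OTC sh-Glud1 mouse 65 the median was 0.06. The 95% interval of the log2 fold change was -0.50 to 0.78 for Got1 in WT and -1.11 to 0.27 in OTC. It was -0.05 to 0.39 for Gpt and -0.08 to 0.53 for Gpt2 in WT, and -0.04 to 0.16 for Got2 in OTC. The difference of the sh-Glud1 effects between stocks passed for none of the listed genes and for 0% of all genes, with 1 listed gene (Pdhb) and 417 of all genes at an unadjusted p below 0.05.

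The 2 hairpins were also set directly against each other. In WT 2 genes were higher under sh-Gls2 than under sh-Glud1 (5.56%) and 11 lower (30.6%), against 15.5% and 14.2% of all genes. In OTC 4 were higher (11.1%) and 10 lower (27.8%), against 19.5% and 21.1% of all genes. These comparisons use the same sh-Gls2 libraries as those with the controls. In both stocks Idh2 and Slc25a12 were higher under sh-Gls2, and Fh1, Slc25a11, Dlat, Dlst, Slc25a1 and Slc25a10 were lower. Fh1 had no overlap in either stock (-0.43 ± 0.14 in WT, adjusted p = 0.0200, and -1.05 ± 0.15 in OTC, adjusted p = 1.25e-07).

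In WT 3 of 5 regulators of pyruvate dehydrogenase, 2 of 5 of its subunits, 2 of 11 matrix cycle genes and 4 of 5 carriers were called. The other called genes were Idh2, higher under sh-Gls2, and Got2, lower. Pdpr was lower under sh-Gls2 by -0.42 ± 0.08 (adjusted p = 2.08e-05). Pdk1 stood at 73.8 to 130.0 CPM (median 107) under sh-Glud1 and was lower under sh-Gls2 by -0.70 ± 0.16 (adjusted p = 0.000514). Pdha1 was at 117 to 145 CPM (median 125) under sh-Glud1 and 100.1 to 133 CPM (median 106) under sh-Gls2 (-0.24 ± 0.06, adjusted p = 0.00248). In OTC, Idh2 was at 75.6 to 122 CPM (median 107) under sh-Glud1, below every sh-Gls2 library, the lowest of which was at 122 CPM (0.59 ± 0.12, adjusted p = 6.29e-05). Idh3a was lower under sh-Gls2 (-0.70 ± 0.14, adjusted p = 5.80e-05), as was Slc25a1 (-0.36 ± 0.10, adjusted p = 0.00298), which was at 166 to 245 CPM (median 220.3) under sh-Glud1 and 143 to 197 CPM (median 168) under sh-Gls2. Without OTC sh-Glud1 mouse 65 the OTC difference was -0.58 (adjusted p = 0.137) for Got1, -0.15 (adjusted p = 0.0506) for Dlst and -0.17 (adjusted p = 0.264) for Slc25a22, from -0.997, -0.27 and -0.40. Without mice 58 and 65 the OTC comparison had 10 calls, 4 higher and 6 lower, with Got1 at -0.27 (adjusted p = 0.533) and Fh1 at -0.72 (adjusted p = 6.46e-06). Dlst, Got1, Aco1, Slc25a22 and Idh3g were then not called, and Dld was called higher. The Slc25a22 call also ended without mouse 44 (-0.35, adjusted p = 0.0520). Slc25a10 and Slc25a12 were near the threshold in OTC (-0.31 and 0.31, adjusted p = 0.0494 and 0.0471), and 14 and 10 of 18 single omissions ended those calls.

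Shares of TPM within 8 pairs of related genes do not depend on library scaling, and 15 of 40 tests passed (two-sided permutation tests, exact where a group has fewer than 10 libraries, adjusted over the 40). The 40 include the pair of Slc25a22 and the near absent Slc25a18. Slc25a22 held a mean share of at least 99.9% in every group, so the tests of that pair say little. The cytosolic share of aspartate aminotransferase, Got1 of Got1 plus Got2, was 38.4 ± 4.92% in WT control and 57.9 ± 16.8% in OTC control (exact permutation test, adjusted p = 0.00183). Without mice 03 and 67 the OTC share was 49.2 ± 5.30% and the difference held (exact, adjusted p = 0.00500). Under sh-Gls2 in OTC the Got1 share was 44.1 ± 4.32% (exact, adjusted p = 0.0318), a difference of -5.06 percentage points without both mice (exact, adjusted p = 0.141). The Gpt share of Gpt plus Gpt2 was 58.1 ± 4.02% in WT control, 66.5 ± 4.45% in OTC control and 60.3 ± 1.96% under sh-Gls2 in OTC (exact, adjusted p = 0.00528 for each comparison with OTC control).

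The cytosolic shares of malate and isocitrate dehydrogenase were lower in OTC and under sh-Gls2 in WT. Mdh1 made up 75.4 ± 1.22% of Mdh1 plus Mdh2 in WT control, 69.3 ± 3.38% in OTC control (exact, adjusted p = 0.00183) and 72.9 ± 1.25% in WT sh-Gls2 libraries (permutation test, adjusted p = 0.00286). Idh1 made up 81.2 ± 3.10% of Idh1 plus Idh2 in WT control, 70.4 ± 15.2% in OTC control (exact, adjusted p = 0.0324) and 73.1 ± 4.31% in WT sh-Gls2 libraries (permutation test, adjusted p = 0.00183). Without mice 03 and 67 the Idh1 difference between the stocks was -4.31 points (exact, adjusted p = 0.146), and sh-Gls2 in OTC then lowered the Idh1 share by a difference of -11.3 points (exact, adjusted p = 0.00500).

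Suclg2 made up 63.7 ± 3.502% of Suclg2 plus Sucla2 in WT control and 57.3 ± 3.29% in OTC control (exact, adjusted p = 0.00658). Under sh-Gls2 its share was 66.8 ± 1.12% in WT (permutation test, adjusted p = 0.0387) and 64.5 ± 2.73% in OTC (exact, adjusted p = 0.00183). The Mpc1 share of Mpc1 plus Mpc2 was 46.3 ± 2.08% in WT control and 43.4 ± 2.05% in OTC control (exact, adjusted p = 0.0264), and under sh-Gls2 50.5 ± 3.65% in WT (permutation test, adjusted p = 0.0231) and 50.2 ± 1.57% in OTC (exact, adjusted p = 0.00183). Every OTC sh-Gls2 library had a higher Mpc1 share than every OTC control. The Pdk1 share of Pdk1 plus Pdk2 was 31.9 ± 2.74% in WT control and 23.8 ± 4.49% under sh-Gls2 (permutation test, adjusted p = 0.00253). None of the sh-Glud1 comparisons passed for any of the 8 pairs.

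**Figure D5:**
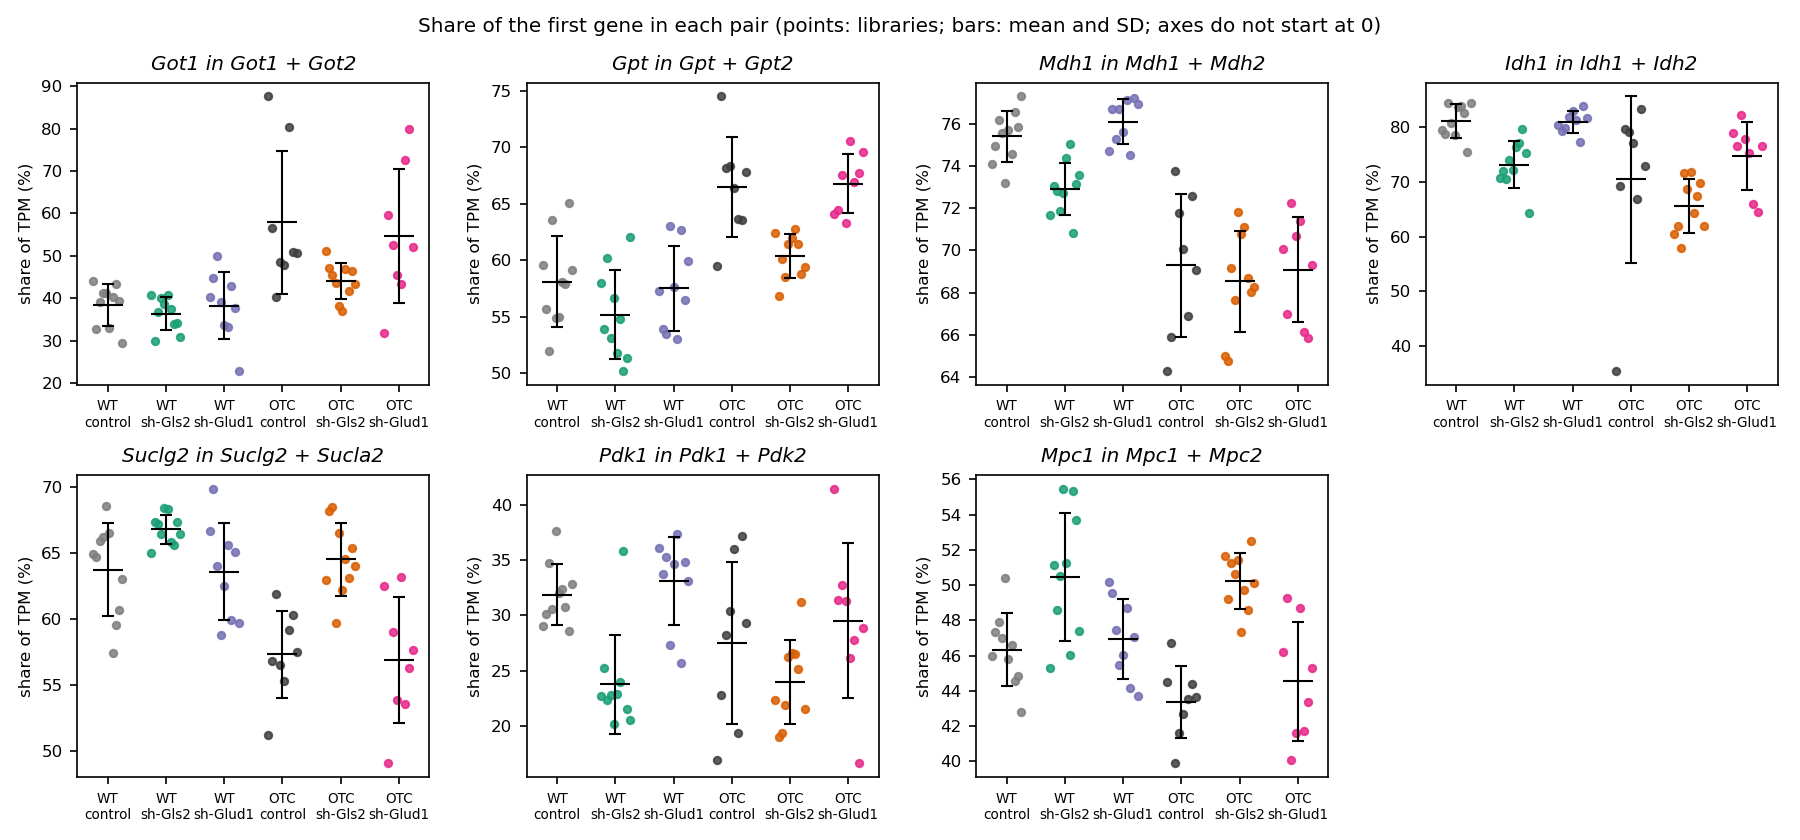
Share (%) of TPM held by the first gene of 7 pairs in each library (points) of the 6 groups, with mean and SD as bars and axes that do not start at 0. The Got1 share rises to 87.6% in OTC control, and the Mpc1 share of the OTC sh-Gls2 libraries lies above that of all OTC controls.

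Genes of the same pathways that are outside the list were read from the same fit, from lists drawn up by function. Of 9 tested other TCA cycle enzymes, 2 were higher and none lower in OTC control, and under sh-Gls2 4 fell in WT and 2 in OTC, with none rising. For these and the lists that follow, the shares of all genes were 19.9% higher and 16.4% lower in OTC control, 17.6% and 17.2% under sh-Gls2 in WT, and 20.2% and 22.6% in OTC. Sdhd, a membrane subunit of succinate dehydrogenase, was higher in OTC control by 0.54 and fell under sh-Gls2 by 0.48 in OTC, in both cases without overlap, and by 0.20 in WT. Without mice 03 and 67 the OTC values of Sdhd were 0.42 and -0.38 (adjusted p = 1.67e-05 and 4.73e-05). Sdha, the flavoprotein subunit, fell by 0.22 in WT and 0.20 in OTC. Of 11 tested genes of lipoate and cofactor supply, 2 were higher and 3 lower in OTC control, 1 rose and 2 fell under sh-Gls2 in WT, and 1 rose and 3 fell in OTC. Isca1, an iron-sulfur cluster assembly protein, fell under sh-Gls2 by 0.59 in WT and 0.81 in OTC, in both stocks without overlap.

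Of 11 tested other pyruvate enzymes, 4 were higher and 2 lower in OTC control, 3 rose and 1 fell under sh-Gls2 in WT, and 1 rose and 2 fell in OTC. Ldhd, which oxidises D-lactate, was lower in OTC control (-1.02) without overlap, and Ldha, a lactate dehydrogenase subunit, fell under sh-Gls2 in WT by 0.43. Of 8 tested other aminotransferases, 1 was higher and 4 lower in OTC control, none was called under sh-Gls2 in WT and 3 fell in OTC. Of 10 other mitochondrial carriers, 3 were higher and 2 lower in OTC control, 1 rose and 3 fell under sh-Gls2 in WT, and 2 rose and 5 fell in OTC. Slc25a13 fell under sh-Gls2 by 0.26 in WT and by 0.31 in OTC. Without mice 03 and 67 the counts higher and lower in OTC control were 1 and 1 for the cycle enzymes, 1 and 3 for cofactor supply, 4 and 3 for pyruvate enzymes, 0 and 4 for aminotransferases (9 tested in that fit) and 2 and 4 for carriers. Under sh-Gls2 in OTC they were then 0 and 2, 1 and 3, 0 and 1, 2 and 1, and 3 and 4, in the same order. No gene of these 5 lists was called under sh-Glud1 in either stock, by edgeR.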

How the data were processed

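Liver RNA of 55 mice was sequenced from libraries made with a stranded mRNA kit, per the labels' protocols. The authors deposited 1 table of gene counts and 1 of TPM (transcripts per 1000000), both over 24475 genes. The submitters' processing notes name CASAVA 1.8.2, FastQC and GRCm38. The aligner, counter and annotation behind the deposited counts and TPM, and whether counting used strand, are not given in the sources used here. Columns were matched to mice by the mouse numbers in the titles, and 1 OTC control column, whose number is in no title, entered as a library of its group without a number. Mice are separate samples, and the closest of 227 library pairs within groups differed by 10.48 in chi-square per degree of freedom, so no library was counted as a repeat.

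Counts were fitted with edgeR 4.0.16 in R 4.3.3 (TMM, filterByExpr with a minimum count of 10 and total of 15, 1 mean per group over all 55 libraries, quasi-likelihood F test). Calls were made at a Benjamini-Hochberg adjusted p under 0.05 over 13311 genes, and SE is the absolute log2 fold change over the root of F. The fit was tested on simulated data. Alternatives were DESeq2 1.42.0 (Wald test and size factors), other filters, the compared groups alone, limma 3.58.1 on the log2 of TPM plus 1 or plus 0.1, keeping genes whose mean TPM was at least 1, and omission of each library. Omission of OTC control mice 03 and 67, of OTC sh-Glud1 mice 58 and 65, of WT control mouse 13, and of WT control mouse 07, WT sh-Gls2 mouse 45 and OTC sh-Glud1 mouse 65 was added after the data were seen. TPM shares used exact permutation tests, or 100000 resamples where both groups have 10 libraries.

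The 37 genes, the companion lists and the markers were chosen with earlier results of these data known. Group ranges are printed for the 4 called genes lowest in adjusted p, per direction and comparison, and other genes were named for their role or as exceptions after their values were seen. Of the 37 genes, 9 overlap an exon on the opposite strand and none on the same strand, in GENCODE M21 on GRCm38. The 9 are Pdha1, Pdpr, Mpc1, Idh3b, Mdh1, Got2, Slc25a10, Slc25a11 and Slc25a18. Mpc1 and Got2 also have named pseudogenes. Reads of these 9 genes could be shared.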

Additional observations from a re-analysis of the deposited data

Results flagged for a closer look

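In each gene and group, the library farthest from the rest was compared with Dixon's critical value. Of 216 gene and group combinations 30 passed, over 19 genes, where chance gives 10.8 at 1 in 20. The combinations are not independent, since 3 libraries gave 20 of the 30. Values are CPM.

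OTC sh-Glud1 mouse 65 was the highest of its group for Dld (174), Dlst (279.7), Fh1 (576), Idh3a (96.2), Mdh1 (641), Mdh2 (281), Slc25a11 (106) and Slc25a22 (267). WT control mouse 07 was the lowest of its group for Aco1 (202), Got2 (378), Gpt (131), Pdk2 (49.5), Slc25a11 (39.9) and Sucla2 (116). WT sh-Gls2 mouse 45 was the highest of its group for Cs (184), Pdha1 (133), Pdk1 (105), Slc25a1 (209), Slc25a10 (211) and Slc25a11 (58.5). Each of these libraries stood apart in 1 direction over its genes.

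The other values stood alone or in pairs. WT control mouse 13 was highest for Pdk1 (146) and Slc25a10 (247). Pdk1 was also highest in OTC control mouse 72 (148) and OTC sh-Glud1 mouse 23 (139). Got2 was highest in OTC control mouse 67 (502) and OTC sh-Gls2 mouse 24 (541). Sucla2 was highest in OTC sh-Gls2 mouse 49 (158) and Idh3b in WT sh-Glud1 mouse 32 (169). Aco1 was lowest in WT sh-Gls2 mouse 79 (219) and Slc25a11 in WT sh-Glud1 mouse 40 (53.2). OTC control mice 03 and 67 do not appear for Got1, because a pair of high libraries leaves no single gap.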

How the results depend on the processing

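Of 93 called gene and comparison results, 47 stayed called in the same direction under every alternative setting run for their comparison (8 to 11 of 12) and every omission of a single library, and 26 were lost by at least 1 such omission. In 1 the direction turned: Got2 in OTC against WT under sh-Glud1 was 0.0094 under both log2(TPM + 1) and log2(TPM + 0.1). The number of listed genes called between the stocks under sh-Gls2 moved most, from 7 to 14 with the compared groups alone and to 17 under both log2(TPM + 1) and log2(TPM + 0.1). Omitting each library in turn gave 4 to 8 there, 14 to 20 under the control vector and 16 to 21 under sh-Glud1. It gave 10 to 14 for sh-Gls2 in WT, 9 to 14 in OTC, 13 to 14 and 11 to 14 for sh-Gls2 against sh-Glud1 in WT and OTC, and 0 throughout for sh-Glud1 and for both differences of effects. Without WT control mouse 07, WT sh-Gls2 mouse 45 and OTC sh-Glud1 mouse 65 the difference of the sh-Gls2 effects had 1 call (Suclg2). Of the 40 share tests, 15 passed on TPM and on raw counts, 14 with medians and 15 without OTC control mice 03 and 67, where the Pdk1 share in OTC under sh-Gls2 also passed (-6.67 points, adjusted p = 0.0387, exact permutation test). With medians the Got1 share in OTC under sh-Gls2 (adjusted p = 0.0652) and the Mpc1 share between the control groups (adjusted p = 0.0809) did not pass. The cause of these changes was not tested. No paired analysis was possible because each mouse number belongs to 1 mouse and is shared by no groups.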
